A study of Mus musculus with 10 samples.

Results

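Dazl, Ddx4, Mael, Sycp1, Sycp3, Stk31, Slc25a31, Tex101, Hormad1 and Stra8 are germline genes, that is, genes known for their work in germ cells. They were followed here through all 8 mRNA libraries of a study of the chromatin factor Pontin, the transcription factor Oct4 and the lincRNA linc1253 in mouse ES cells. The 10 symbols were given as a list and matched to 10 of the 22713 Ensembl gene IDs in the expression tables. The rule uses symbols alone, but the list was drawn up with earlier results of these data known. They had been proposed as genes that are silent in ES cells. The libraries did not bear this out for most of them: 8 of the 10 were above a normalized read count (CPM) of 1, scaled to the size of each library, in all 8 libraries, Slc25a31 was in 5 and Tex101 in 2. They are therefore called germline genes below, and not silent genes. Of 22322 protein-coding genes, between 55.0% (WT) and 58.3% (linc1253 shRNA library 1) were above 1 CPM in a library. The CPM summed to between 638591 and 798811 per library in the first table and to at least 978095 in the second, so that levels differ in scale between the tables. Scaled by total reads on genes instead, Slc25a31 was above 1 in 6 libraries and Tex101 in 3, and the other 8 genes again in all 8.

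Germ cells carry programmes that other cells lack, among them RNA control by Dazl and the helicase Ddx4, defence against transposons by piRNAs, and meiosis, in which paired chromosomes are joined by the synaptonemal complex and recombine. In mice, retinoic acid induces Stra8 and with it the entry into meiosis. In somatic cells and ES cells many promoters of such genes are rich in CpG and are held down by DNA methylation, by H3K9 methylation and by a variant Polycomb complex. The subunits Mga and Max of that complex bind the E-box word CACGTG, and its subunit E2f6 binds E2F sites.

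Pontinf/f; CreER ES cells carry floxed Pontin alleles and a Cre recombinase that 4-hydroxytamoxifen (OHT) activates. They gave 1 library without treatment (WT), 1 after 3 days (OHT 3D) and 1 after 4 days of OHT (OHT 4D). WT carried the same floxed alleles and the same CreER, and the promoter that drives CreER is not given in the sources used here. ZHBTc4 ES cells, in which tetracycline (Tc) turns off the Oct4 gene that keeps them undifferentiated, gave 1 library after 2 days of Tc (Tc 2D). ZHBTc4 cells infected for 4 days with a pLKO lentivirus gave 2 control shRNA libraries and 2 libraries in which the shRNA targets linc1253. Untreated ZHBTc4 cells gave 1 Pontin and 1 GFP ChIP-seq library. Each line is a single ES cell line, and nothing in the labels says whether the 2 libraries of an shRNA came from separate cultures, so p-values here measure the spread between these libraries, which may be technical.

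The reads on genes ranged from 17187595 to 37951742 per mRNA library. Ruvbl1, which encodes Pontin, had 198 CPM in WT and 33.3 and 50.9 CPM in the OHT libraries (85.0 at Tc 2D, and 166 and 186 with control shRNA), and Pou5f1, which encodes Oct4, had 301 CPM in WT and 21.1 CPM at Tc 2D, as the labels call for. In control shRNA libraries 1 and 2, Pou5f1 had 642 and 582 CPM. The Y-linked gene Ddx3y had 0 reads in WT and 3 reads in each OHT library but 1234 reads at Tc 2D and between 1067 and 2170 in the shRNA libraries. Eif2s3y and Uty, also Y-linked, had 0 reads in WT and at most 3 in an OHT library, but 1449 and 590 at Tc 2D. In the shRNA libraries they had 1207 to 2515 and 249 to 595 reads. Kdm5d, Y-linked too, had 0 reads in WT and in each OHT library and 56 to 122 in the shRNA libraries but only 3 at Tc 2D. By the labels Tc 2D shared its line with the shRNA libraries, and it shared its table and sequencer with WT. Of 14 fibroblast markers, 11 of the 12 that passed the filter were called higher at OHT 3D and 11 at OHT 4D. Summed, they had 833 CPM in WT and 1002 and 954 CPM in the OHT libraries, most of it Fn1. Col1a1 had 4.20, 46.5 and 64.6 CPM in these libraries, whereas Lum was at 0 in WT and OHT 3D and Dcn stayed under 1 CPM. The study grew ES cells with or without fibroblast feeders. In such bulk libraries fewer cells of a type and less RNA per cell cannot be told apart.

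The promoters of the 10 genes were read from RefSeq (GRCm38.p6), where all 10 matched, as windows from 250 bases before to 50 bases after the start of transcription. Each window also occurred exactly 1 time in NCBIM37, the build of the deposited files. The 250 bases up to the start are printed for Ddx4 and Stra8, the highest and the lowest of the 10 in the Pontin over GFP ratio, and for Dazl, which with these 2 had the most reads over the 8 libraries. Sycp3 and Slc25a31, chosen after their values were seen, are added because the comparisons below turn on them. All are 5′ to 3′ in the direction of transcription, and capitals mark the E-box CACGTG and the E2F-type word GGCGGGA on either strand. On NCBIM37, Ddx4 is chr13:113442519-113442768 (minus strand), Sycp3 is chr10:87922082-87922331 (plus), Slc25a31 is chr3:40512543-40512792 (plus), Dazl is chr17:50432946-50433195 (minus) and Stra8 is chr6:34870698-34870947 (plus).
Ddx4: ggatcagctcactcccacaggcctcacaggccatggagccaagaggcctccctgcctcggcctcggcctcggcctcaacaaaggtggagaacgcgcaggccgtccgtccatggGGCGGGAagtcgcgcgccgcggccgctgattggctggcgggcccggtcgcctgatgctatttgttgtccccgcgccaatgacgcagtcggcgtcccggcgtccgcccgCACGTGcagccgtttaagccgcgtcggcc
Sycp3: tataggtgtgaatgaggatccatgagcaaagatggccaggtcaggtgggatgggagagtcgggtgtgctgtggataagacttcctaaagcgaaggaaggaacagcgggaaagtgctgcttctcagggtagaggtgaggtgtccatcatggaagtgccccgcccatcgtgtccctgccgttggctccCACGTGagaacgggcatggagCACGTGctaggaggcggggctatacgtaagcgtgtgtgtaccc
Slc25a31: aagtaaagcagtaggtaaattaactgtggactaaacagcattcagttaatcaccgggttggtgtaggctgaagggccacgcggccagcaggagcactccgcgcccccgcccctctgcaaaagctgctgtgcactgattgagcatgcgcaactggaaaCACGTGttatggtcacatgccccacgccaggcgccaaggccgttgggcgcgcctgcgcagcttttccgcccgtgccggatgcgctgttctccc
Dazl: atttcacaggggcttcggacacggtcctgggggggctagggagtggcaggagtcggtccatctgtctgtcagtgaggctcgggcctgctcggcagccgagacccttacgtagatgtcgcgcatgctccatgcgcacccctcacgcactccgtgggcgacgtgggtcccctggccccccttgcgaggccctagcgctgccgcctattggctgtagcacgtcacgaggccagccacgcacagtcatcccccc
Stra8: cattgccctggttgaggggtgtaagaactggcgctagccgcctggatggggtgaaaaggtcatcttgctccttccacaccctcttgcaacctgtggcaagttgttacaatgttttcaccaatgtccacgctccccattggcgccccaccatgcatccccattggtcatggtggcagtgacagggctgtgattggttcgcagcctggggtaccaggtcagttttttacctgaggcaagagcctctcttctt

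The E-box CACGTG, which reads the same on both strands, lay in the windows of 7 of the 10 genes, namely Ddx4, Mael, Sycp1, Sycp3, Stk31, Slc25a31 and Hormad1. Of all 27025 promoters, 7.24% held it. Sycp3 and Hormad1 each held 2 E-boxes, as did 0.625% of all promoters. The 2 E-boxes of Sycp3 began 64 and 43 bases before the start, and those of Hormad1 57 and 20 bases before it. The E2F-type word GGCGGGA, searched on both strands, lay in 4 windows, those of Ddx4, Mael, Slc25a31 and Hormad1, against 11.4% of all promoters, and no match overlapped an E-box. In Slc25a31 it lay downstream of the start, outside the printed bases. These 4 also held an E-box, a pair of words found in 1.23% of all promoters. Dazl, Tex101 and Stra8 held neither word.

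Base composition bears on such counts. The 10 windows held between 10 CpG (Stra8) and 38 CpG (Ddx4), with a median of 23, where the median of all promoters was 7. Among the 11876 promoters with at least 10 CpG, 11.1% held the E-box, 23.3% the E2F-type word and 2.69% both. The observed over expected CpG ratio ranged from 0.430 in Stra8 to 0.978 in Ddx4. Matches of these words are a description of letters, not of binding. In Stra8 the RefSeq start lay 785 bases downstream of the start in the NCBIM37 annotation. In the other 9 genes these starts were between 65 bases upstream and 18 bases downstream of each other.

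Dazl (ENSMUSG00000010592, chr17:50418719-50432924), whose protein binds mRNA and is needed for germ cell development, had 6.39 CPM in WT, 6.02 and 4.47 in OHT 3D and OHT 4D, and 5.50 in Tc 2D. It had 48.2 and 37.8 CPM with control shRNA and 38.9 and 35.5 with linc1253 shRNA. Every shRNA library was therefore far above every library of the first table, with Tc 2D on the low side. Ddx4 (ENSMUSG00000021758, chr13:113388541-113442518), the germ cell RNA helicase also called Vasa, had 26.6 CPM in WT, 23.3 and 19.2 in OHT 3D and OHT 4D, and 48.8 in Tc 2D. In the shRNA libraries Ddx4 had 20.2 and 23.5 CPM (control) and 17.9 and 23.1 CPM (linc1253). Only Tc 2D stood apart among the 8 libraries for Ddx4, with 1385 reads against 438 to 693 in the others.

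Mael (ENSMUSG00000040629, chr1:168131516-168168875), which acts in the piRNA pathway, had 11.6 CPM in WT, 9.05 and 8.10 in OHT 3D and OHT 4D, and 23.0 in Tc 2D. Mael had 39.0 and 36.9 CPM with control shRNA and 27.0 and 26.0 CPM with linc1253 shRNA. The 3 libraries of the Pontinf/f; CreER line were its lowest. Stk31 (ENSMUSG00000023403, chr6:49345603-49419500), a germ cell kinase with a Tudor domain, had 5.68 CPM in WT, 7.92 and 6.70 in OHT 3D and OHT 4D, and 20.5 in Tc 2D. With control shRNA it had 23.3 and 20.2 CPM, and with linc1253 shRNA 20.6 and 17.7 CPM. All 5 ZHBTc4 libraries lay above the 3 others for Stk31.

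Slc25a31 (ENSMUSG00000069041, chr3:40512777-40529515), the ADP/ATP carrier of germ cell mitochondria, spanned the widest range. WT had 0.447 CPM (10 reads), OHT 3D 0.860 (19 reads), OHT 4D 0.482 (11 reads) and Tc 2D 5.11 (145 reads). It reached 13.6 and 9.25 CPM with control shRNA and 12.6 and 9.87 with linc1253 shRNA. Here too the lines did not overlap, and on a median-ratio scale fitted to all 8 libraries the highest value was 27.0 times the lowest. Tex101 (ENSMUSG00000062773, chr7:25453031-25457069), a surface protein of germ cells, was the lowest of the 10, with 3 reads in WT, 7 in each OHT library and 20 at Tc 2D. It had 22 and 16 reads with control shRNA and 43 and 15 with linc1253 shRNA, between 0.658 and 1.11 CPM, so that its values are hardly resolved by counting.

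Sycp1 (ENSMUSG00000027855, chr3:102622422-102740023) encodes the transverse filament of the synaptonemal complex. It had 6.93 CPM in WT, 8.60 and 6.40 in OHT 3D and OHT 4D, and 11.8 in Tc 2D, and 9.50 and 11.8 CPM with control shRNA and 8.61 and 10.5 with linc1253 shRNA. As deposited, the lines barely parted for Sycp1, with 8.60 CPM in OHT 3D and 8.61 in linc1253 shRNA library 1 at the closest. On the median-ratio scale of all 8 libraries they overlapped, with 10.5 and 9.33 in these libraries. Its range on that scale was the narrowest of the 10, at 1.88-fold. Sycp3 (ENSMUSG00000020059, chr10:87922314-87935981), a protein of the chromosome axes, had 13.4 CPM in WT, 6.61 and 7.27 in OHT 3D and OHT 4D, and 5.39 in Tc 2D. It had 8.07 and 9.03 CPM with control shRNA and 7.47 and 6.93 CPM with linc1253 shRNA. WT was the highest of all libraries for Sycp3.

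Hormad1 (ENSMUSG00000028109, chr3:95363599-95391593), which monitors the pairing of chromosomes, had 25.1 CPM in WT, 20.5 and 19.0 in OHT 3D and OHT 4D, and 3.84 in Tc 2D. It had 12.1 and 13.0 CPM with control shRNA and 10.8 and 11.4 with linc1253 shRNA, and Tc 2D was the lowest library. Stra8 (ENSMUSG00000029848, chr6:34870163-34889342), the retinoic acid target named above, had 35.6 CPM in WT, 30.0 and 38.9 in OHT 3D and OHT 4D, and 37.3 in Tc 2D. It had 14.3 and 12.8 CPM with control shRNA and 12.5 and 9.78 with linc1253 shRNA. For Stra8 the libraries divided by table, all 4 of the first lying above all 4 of the second. The plot of CPM by library shows these 2 ways of dividing. Mael, Stk31, Slc25a31, Tex101 (at few reads) and, in the other direction, Hormad1 divided by line. Dazl and Stra8 divided by table. The share of all genes that divide in either way was not counted. Neither way is therefore shown to be particular to the germline genes.

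**Figure D1:**
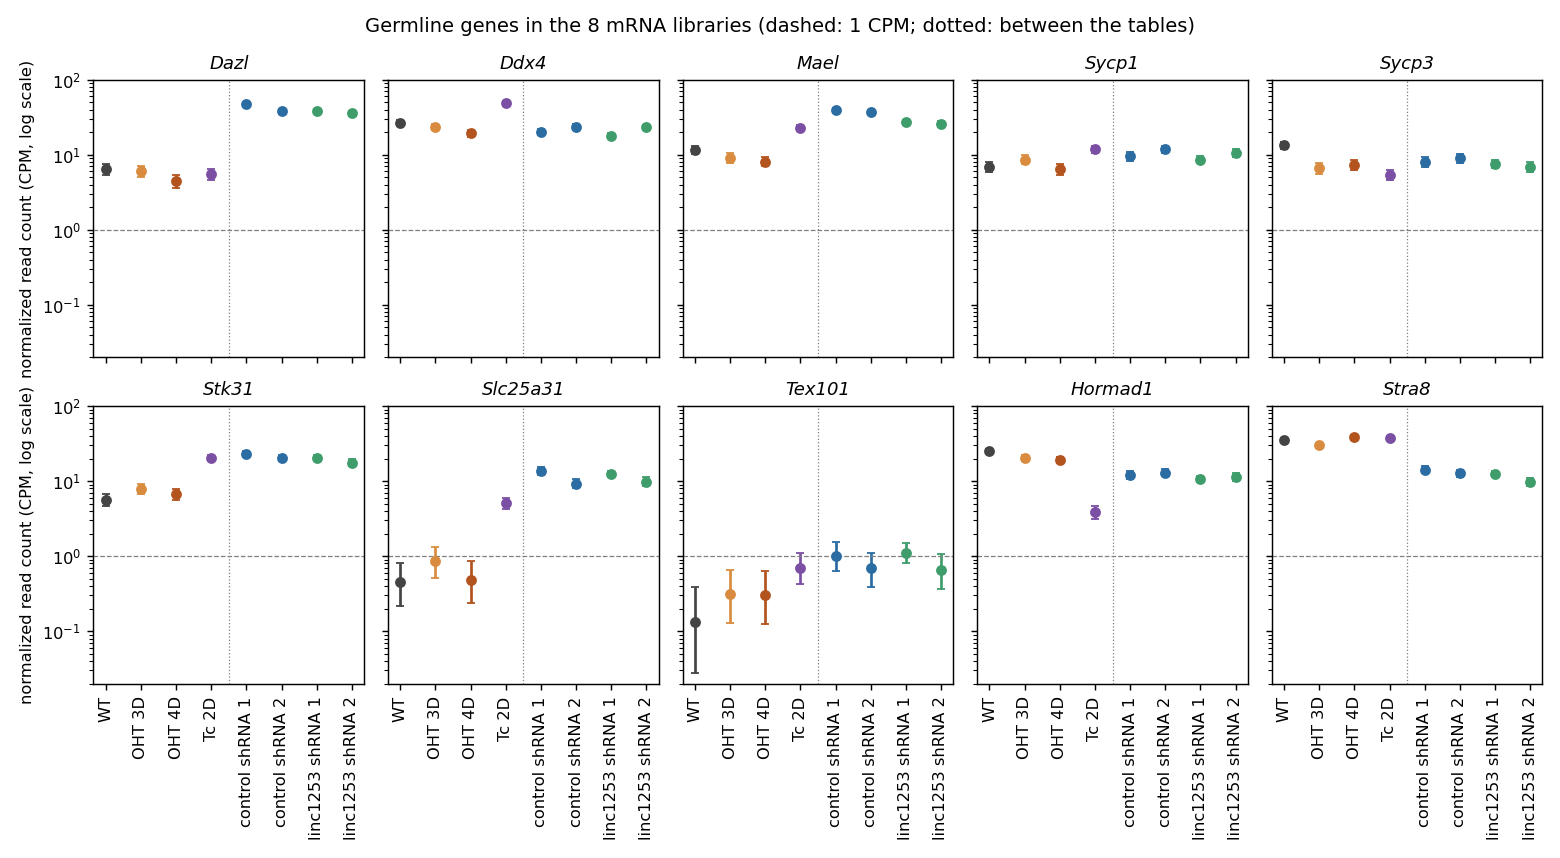
Normalized read counts (CPM, log scale) of the 10 germline genes in each mRNA library, with 95% exact Poisson intervals of the reads; the dashed line is 1 CPM and the dotted line divides the tables, which were normalized separately. Dazl lies between 4.47 and 6.39 CPM left of the dotted line and between 35.5 and 48.2 CPM right of it, whereas Stra8 lies between 30.0 and 38.9 CPM on the left and between 9.78 and 14.3 CPM on the right.

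Set against each other per length, the genes differed in order between the libraries. In WT, Stra8 came first with 19.8 CPM per kb of exon, followed by Hormad1 (14.5), Sycp3 (10.6), Ddx4 (9.35) and Mael (7.52). Dazl, Sycp1 and Stk31 followed at 2.12, 2.00 and 1.75 CPM per kb, and Slc25a31 and Tex101 came last at 0.275 and 0.127. The counting intervals of Sycp3 and Ddx4 overlapped, as did those of Dazl, Sycp1 and Stk31 and those of Slc25a31 and Tex101, so that the order within these groups is not resolved. In control shRNA libraries 1 and 2, Mael came first with 25.2 and 23.8 CPM per kb and Dazl next with 16.0 and 12.5. Slc25a31, Stra8, Stk31, Ddx4, Hormad1 and Sycp3 lay between 5.69 and 8.37 CPM per kb in these libraries, with overlapping values, and Sycp1 and Tex101 were again low. Tc 2D, of the same line as the control shRNA libraries, had Stra8 first as in WT, at 20.7 CPM per kb, then Ddx4 (17.1) and Mael (14.9), with Dazl at 1.82. In WT the 10 genes lay above 39.0% (Tex101) to 86.4% (Stra8) of the 22322 protein-coding genes in CPM per kb, and 5 of the 10 were under 7.17, the median of those above 1 CPM.

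Late germ cell genes were a contrast in level. Of 12 genes of late spermatids and oocytes, such as the protamine Prm1 and the zona pellucida gene Zp2, 1 gene, Zp3, was above 1 CPM in WT and 0 genes were at Tc 2D. Of 19 genes of the meiotic axis, synapsis and recombination, 14 were above 1 CPM in WT and 15 in each control shRNA library. Of 14 matched genes of the piRNA pathway, 10 were in WT and 13 in each control shRNA library. Of 16 other germline genes, 9 were above 1 CPM in WT and 14 in each control shRNA library. Of all protein-coding genes, 55.0% were above 1 CPM in WT and 56.3% at Tc 2D. In control shRNA libraries 1 and 2, 58.2% and 57.7% were. The count of other germline genes in WT is near that share.

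After OHT, which depletes Pontin, 1 of the germline genes was called. No library had OHT without floxed Pontin. The OHT itself, Cre activity, time in culture and loss of Pontin therefore cannot be told apart in these comparisons. At OHT 3D, 9 of the 10 passed the filter of 1 CPM in at least 1 library of the table, 0 were called higher and 1 was called lower, at an absolute log2-fold-change of CPM plus 1 above 0.58. Over all 13449 genes that passed, 6.01% were called higher and 5.88% lower. At OHT 4D the counts for the germline genes were the same, 0 higher and 1 lower, against 6.48% and 8.89% of all genes. The gene called was Sycp3 each time. The median log2-fold-change of those that passed was -0.18 after 3 days and -0.38 after 4 days, where that of all genes was -0.018 and -0.0033. Sycp3 stood at a log2-fold-change of -0.92 after 3 days and -0.80 after 4 days, with CPM ratios to WT of 0.494 (95% counting interval 0.403 to 0.604) and 0.544 (0.447 to 0.660). WT had 13.4 CPM of Sycp3 and the other libraries, of either line, 5.39 to 9.03, so that each comparison with WT rests on that 1 high library. With 1 library a group no p is given, and the counting intervals cover counting error only.

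Exons of Sycp3 overlap Chpt1, a phospholipid synthesis gene on the other strand, and nothing in the sources used here says that the counting used strand, so that reads in the overlap cannot be told apart. WT had 14.1 CPM of Chpt1, OHT 3D 14.4 and OHT 4D 17.0. After 3 days the log2-fold-change of Chpt1 was 0.029, whereas Sycp3 fell. At Tc 2D the pair went opposite ways, with 51.4 CPM for Chpt1.

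The other germline genes stayed within the limit for a call. After 3 and 4 days Ddx4 had log2-fold-changes of -0.18 and -0.45, Mael -0.33 and -0.47, Hormad1 -0.28 and -0.38, and Dazl -0.075 and -0.44. Stk31 had 0.42 and 0.21. Counting intervals of the CPM ratio lay wholly below 1 for 5 genes at OHT 3D, as for 30.9% of all genes, and for 5 at OHT 4D, as for 32.1%. They lay wholly above 1 for 1 gene, Stk31, at OHT 3D and for 0 at OHT 4D, against 25.5% and 29.7% of all genes. The genes below 1 at both times were Ddx4, Mael, Sycp3 and Hormad1, and the OHT comparisons share the WT library. The spread of replicates could be read only in the other line and table: there the 2 libraries of an shRNA differed by up to 0.51 on the same log2 scale (Slc25a31). A change wider than the gene's own widest gap was seen for 4 genes at OHT 3D and 5 at OHT 4D, among them Sycp3, Mael and Hormad1 at both times. Of all genes, 51.7% and 57.3% changed by more than their gap, so these counts are near the background. The plot of ratios by gene sets these values beside those at Tc 2D.

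**Figure D2:**
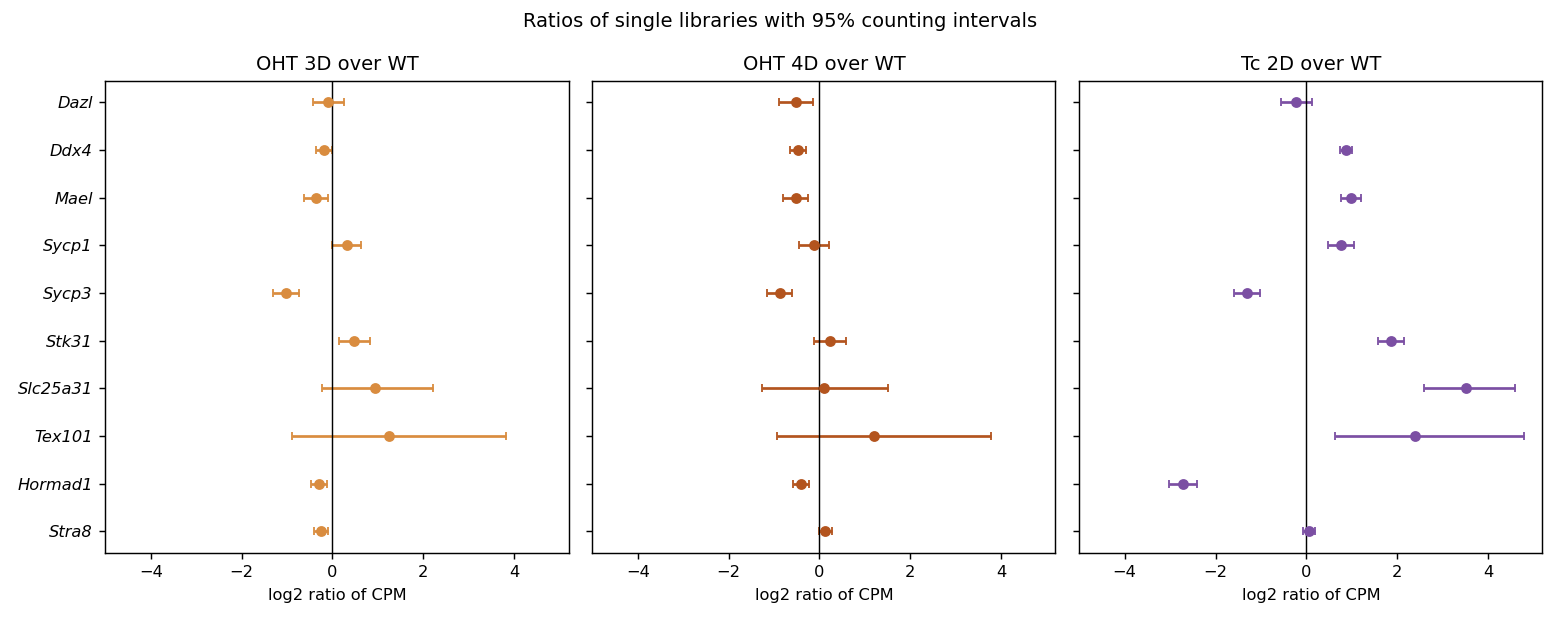
Log2 ratio of CPM to WT for each germline gene at OHT 3D, OHT 4D and Tc 2D, with 95% counting intervals of single libraries. At OHT 3D Sycp3 is the lowest gene, at -1.02, and at OHT 4D it is again the lowest, at -0.88, whereas at Tc 2D Hormad1 is at -2.71 and Slc25a31 at 3.51.

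Lists of related genes differed at these times. In the meiotic list 6 of the 16 genes that passed were called lower at OHT 3D and 5 at OHT 4D, and 0 were called higher. Their median log2-fold-change was -0.39 at OHT 3D and -0.26 at OHT 4D. Smc1b, a cohesin subunit of meiosis, had 21.5, 8.60 and 5.30 CPM in WT, OHT 3D and OHT 4D, and Dmc1, the meiotic recombinase, had 41.7, 19.3 and 24.9 CPM. Rec8 had 27.2, 11.9 and 21.0 CPM and was called at OHT 3D only. Stag3 had 39.2, 24.1 and 16.8 CPM and Meioc 22.7, 11.7 and 9.37 CPM. In the piRNA list 1 of 11 was called lower each time, Tdrd12 (-0.69 and -0.71), with medians of -0.0093 and -0.092. Of 12 other germline genes 1 was called lower at OHT 3D and 3 at OHT 4D, with medians of 0.093 and 0.13. Of 7 regulators of primordial germ cells that passed, Dppa3 (-1.0), Prdm1 (-0.85) and Tfap2c (-0.75) were called lower at OHT 3D. After 4 days Prdm1 (-1.0) and Tfap2c (-0.59) were called lower and Ifitm3 (0.59) higher, whereas Dppa3 had 57.3 CPM, against 55.7 in WT. Of 14 subunits of the Polycomb complex that binds E-boxes, 0 were called at OHT 3D, and at OHT 4D Mga was called lower, with 203 CPM in WT and 86.7 CPM, and Yaf2 higher. Of 9 genes of H3K9 and DNA methylation, 0 were called at OHT 3D and Dnmt3l was called lower (-0.61) at OHT 4D. Genes of the retinoic acid response were called higher in 3 of 11 cases at OHT 3D, led by the receptor Rarg (0.94), and in 5 of 11 at OHT 4D, led by Dhrs3 (1.12). The fibroblast markers given above were called higher in the same libraries. So were 6 and then 8 of 11 trophectoderm markers (1 was lower at OHT 3D) and 4 and then 9 of 11 primitive endoderm markers, with medians of 1.16 and 0.94 after 4 days. The part of these markers in the values was not tested. Some of the genes called higher were under 1 CPM in WT, such as Dhrs3 (0.894) and Postn (0.492), and passed the filter through another library of the table.

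At Tc 2D more of the germline genes differed from WT. Of the 9 that passed, 5 were called higher and 2 lower, against 23.9% and 25.8% of all genes. Slc25a31 passed the filter through Tc 2D alone, the library in which it was then called higher, and of the other 8 genes 4 were called higher. Slc25a31 had a log2-fold-change of 2.08, Stk31 1.69, Mael 0.93, Ddx4 0.85 and Sycp1 0.69. Hormad1 fell by 2.43 and Sycp3 by 1.17 on the same scale, and Dazl (-0.19) and Stra8 (0.064) were not called. The CPM ratio of Slc25a31 was 11.4 (95% counting interval 6.04 to 24.3) and that of Hormad1 0.153 (0.123 to 0.188). Tex101 did not pass the filter, at 20 reads against 3.

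WT, however, is another cell line than Tc 2D. Scaled by total reads in place of TMM, the median log2-fold-change of all genes moved from -0.057 to 0.24, and the same 2 germline genes were called lower and 6, now with Tex101, higher. A comparison of Tc 2D with its own line uses the control shRNA libraries, so that loss of Oct4, table, sequencer and lentivirus cannot be told apart in it. It was made on a median-ratio scale fitted to all 8 libraries, and 2 of the 10 genes were called higher and 3 lower, against 23.8% of all 14219 genes in either direction. Stra8 had 46.1 at Tc 2D on this scale and 14.7 in the control libraries, a log2-fold-change of 1.59, and Ddx4 had 60.4 and 23.7 (1.31). Dazl had 6.80 at Tc 2D and 46.6 in the control libraries and fell by 2.61, Hormad1 fell by 1.34 and Slc25a31 by 0.87. Dazl and Stra8 are the genes whose levels divided by table. Stk31, called higher against WT, was at 0.10 here, and Sycp3, called lower against WT, was at -0.42 and not called. Mael went from 0.93 against WT to -0.52, and Slc25a31 from 2.08 to -0.87. Ddx4 was called higher and Hormad1 lower against either control. With total reads the split was 3 higher and 2 lower, and with CPM as deposited 2 higher and 4 lower. With control shRNA library 1 or 2 left out, it was 2 and 3.

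The control shRNA libraries were also set against WT, a comparison in which line, lentivirus, sequencer and table cannot be told apart. Of the 10 genes, 5 were called higher and 3 lower in ZHBTc4, against 14.8% and 13.8% of all genes. Of the compared libraries, Slc25a31 was above 1 in the control shRNA libraries alone and Tex101 in control shRNA library 1 alone, so that 2 of the higher calls come from genes that passed through the higher group. Of the other 8, 3 were called higher and 3 lower. On the scale of all 8 libraries, Slc25a31 had 12.4 with control shRNA and 0.546 in WT, a ratio of 22.5 (95% counting interval 12.2 to 47.3). Dazl had 46.6 and 7.81 (ratio 5.94, 5.01 to 7.10), Stk31 23.6 and 6.94, Mael 41.2 and 14.2, and Tex101 0.923 and 0.164. Stra8 had 14.7 and 43.5 (ratio 0.337, 0.303 to 0.375), Hormad1 13.6 and 30.7, and Sycp3 9.28 and 16.3. Ddx4 and Sycp1 were not called. The 10 intervals lay wholly above or wholly below a ratio of 1, 6 above and 4 below, where 35.3% and 36.7% of all genes did. Since the comparisons of Tc 2D and of WT with the control shRNA share these control libraries, a value that is high in the controls moves both.

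**Figure D3:**
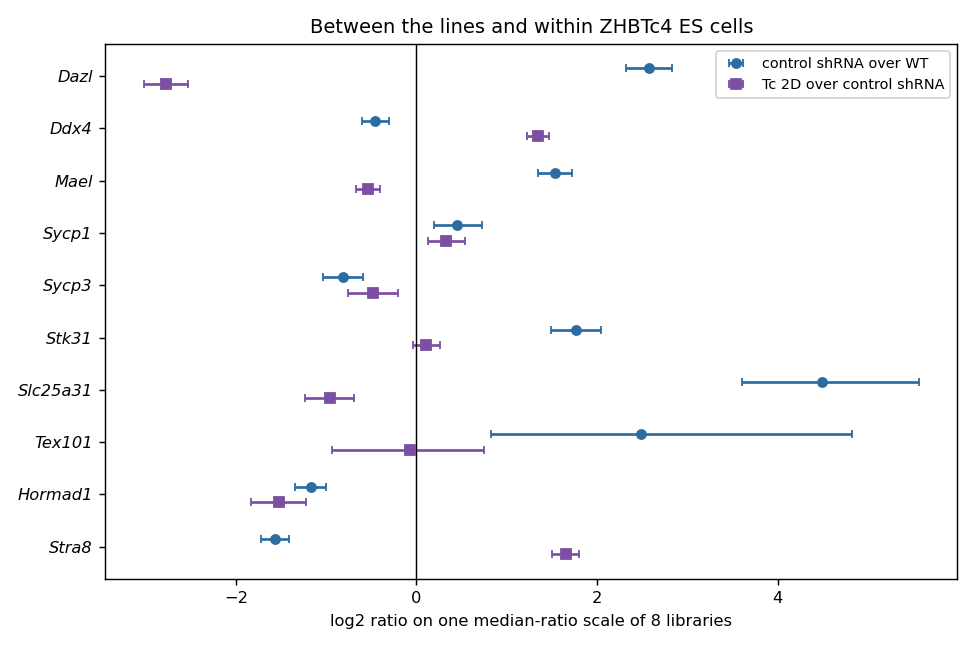
Log2 ratios of the germline genes on a median-ratio scale fitted to all 8 libraries, control shRNA over WT (circles) and Tc 2D over control shRNA (squares), with 95% counting intervals. Slc25a31 and Dazl lie at 4.49 and 2.57 for control shRNA over WT and at -0.96 and -2.77 for Tc 2D over control shRNA; both comparisons share the control libraries.

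Lists of related genes went different ways between these libraries. Of 14 other germline genes that passed, 10 were called higher and 1 lower in control shRNA libraries than in WT, with a median log2-fold-change of 1.25 against -0.0036 for all genes. Of the 10, Tuba3b, Rbm46 and Dpep3 were under 1 in WT on the median-ratio scale that the filter used. Of the compared libraries, they passed through the higher group. Brdt, also called higher, had 0.983 CPM in WT as deposited but was above 1 on the median-ratio scale. Rpl10l, a germ cell ribosomal protein gene, had 8.14 CPM in WT, 3.95 at Tc 2D and 105 and 70.3 in the control libraries. In the piRNA list 9 of 13 were called higher and 2 lower, led by Asz1 and Mov10l1 (2.68 and 2.60), and Asz1, Gtsf1 and Tdrd9 likewise were under 1 in WT. In the meiotic list 7 of 17 were called higher and 3 lower (median 0.24), and of 8 regulators of primordial germ cells 1 was called higher and 5 lower (median -0.86). Of the compared libraries, Tex12, called higher, passed through the controls alone, and Nanos3, called lower, through WT alone. Of 14 subunits of the E-box Polycomb complex 0 were called, and of 9 genes of H3K9 and DNA methylation 1 was, Trim28, at 1.16. At Tc 2D against the control libraries 5 of these 9 were called lower, led by Dnmt3l (-3.53) and Dnmt3a (-2.30), and 7 of the 14 Polycomb subunits were called lower and 4 higher, led by Hdac1 (-1.41). Of 12 pluripotency markers 12 were called lower there, and of 11 trophectoderm markers 9 were called higher and 0 lower, among them Cdx2 and Plac1, which were under 1 CPM in both control libraries. Of 6 matched 2-cell-like markers, 5 were called higher in control shRNA libraries than in WT (median 3.56) and 6 lower at Tc 2D than in the control libraries (median -3.61), the direction of Dazl and Slc25a31. Of these 6, 5 were under 1 CPM in WT and Tc 2D and passed through the control libraries. Among them Zscan4c, Zscan4d and Zscan4f are of one gene family and may not be separate observations. Zscan4c had 0.134 CPM in WT, 0.0705 at Tc 2D and 23.8 and 21.7 CPM with control shRNA. The part of these markers in the values was not tested.

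Knockdown of linc1253 was the only mRNA comparison with replicates in both groups. By limma, 0 of the 10 germline genes passed a Benjamini-Hochberg adjusted p of 0.05, as did 0% of all 13407 genes. The quasi-likelihood test of edgeR and DESeq2, both on the recovered reads, also called 0 of the 10, whereas the exact test of edgeR called 1, Mael (Benjamini-Hochberg adjusted p = 0.0410). Over all genes limma had 496 higher and 503 lower at an unadjusted p under 0.05. The quasi-likelihood test called 0 after adjustment, DESeq2 called 23 higher and 27 lower, and the exact test 38 higher and 43 lower. A limma fit with a replicate block called 933 higher and 1027 lower, among them Mael (limma Benjamini-Hochberg adjusted p = 7.15e-05). No label says that equal numbers pair the libraries, so this fit is an alternative only and is taken up at the end. No gene ID was matched to linc1253, so its own level is not given. At an unadjusted p under 0.05 there was 1 of the 10, Mael, which was lower, where 3.75% of all genes were lower and 3.7% higher. Mael had 37.9 ± 1.53 CPM with control shRNA and 26.5 ± 0.706 with linc1253 shRNA (SD, n = 2 libraries each), and its log2-fold-change was -0.50 ± 0.10 (SE), with a limma p of 0.00229 over all 4 libraries and a Benjamini-Hochberg adjusted p of 0.490. Both linc1253 libraries were below both control libraries for Mael, and also for Sycp3, Hormad1 and Stra8, that is 4 of the 10, where 19.2% of all genes separated in this direction. For the other 6 genes the groups overlapped.

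Of the 10 genes 9 had a log2-fold-change below 0, with a median of -0.17 where that of all genes was -0.0011. Since the genes were measured in the same 4 libraries, this count is not 9 separate observations. Stra8 had -0.27 (95% confidence interval of the limma fit -0.64 to 0.11), Sycp3 -0.22 (-0.55 to 0.11) and Dazl -0.20 (-0.54 to 0.14). Slc25a31, at -0.011, had an interval of -0.52 to 0.49, and Tex101, the one gene above 0, had 0.020 (-0.46 to 0.50). In this fit changes of these sizes in either direction are not separated from 0. Dazl rests on single libraries, at -0.024 without control shRNA library 1 and -0.37 without control shRNA library 2. In the plot of limma estimates, the interval of Mael alone lies clear of 0.

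**Figure D4:**
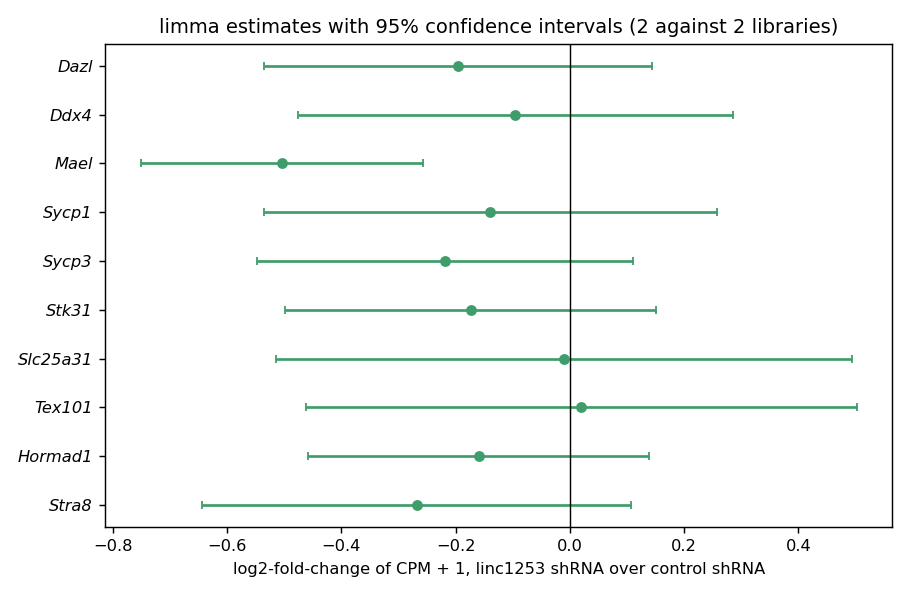
Log2-fold-change of CPM plus 1 between linc1253 shRNA and control shRNA for each germline gene, as estimated by limma from 2 libraries a group, with 95% confidence intervals that are not adjusted for the number of genes. Mael is at -0.50 with an interval of -0.75 to -0.26, and the intervals of the other 9 genes include 0.

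Among related genes, 3 of the 15 meiotic genes that passed had an unadjusted limma p under 0.05, all lower: Meioc (-0.47), Tex11 (-0.43) and Syce2 (-0.38). None of them, and 0 genes of any list, passed the adjusted limit. Tfap2c, a regulator of primordial germ cells, had the smallest unadjusted p of all the lists (0.000267, log2-fold-change -0.71), with a Benjamini-Hochberg adjusted p of 0.406 by limma. In the retinoic acid list Rarg and Rxra were higher at an unadjusted p under 0.05, and of the 6 matched 2-cell-like markers, genes of the early embryo that some ES cells express, 4 were higher. Those were Usp17le and Zscan4c, Zscan4d and Zscan4f, which are of one gene family and may not be separate observations. The 12 fibroblast markers that passed had a median of 0.45, with 0 at an unadjusted p under 0.05. Of these markers, Acta2 and Tnc had 17.7 and 13.5 CPM in linc1253 shRNA library 2, against 0.180 and 0.0258 in library 1. Control shRNA library 2 had 3.31 and 2.97 CPM of them, against 0.277 and 0.0923 in control library 1. Col5a1, Thy1, Pdgfrb and Loxl1 went the other way and were lower in library 2 of each shRNA. Thy1, for one, had 26.9 CPM in linc1253 shRNA library 2 and 33.6 in library 1. Without linc1253 shRNA library 2, the log2-fold-change of Mael was -0.48 (limma, Benjamini-Hochberg adjusted p = 0.878) and that of Stra8 -0.11.

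Pontin ChIP-seq showed 0 of the 10 promoters above a log2 ratio of 1 over GFP, where 14.4% of all 21193 promoters were. Scaled by the median ratio over promoters in place of library size, 5.78% of all promoters and again 0 of the 10 were above 1. Reads were counted from 2.5 kb upstream to 500 bases downstream of the start site in the NCBIM37 annotation and scaled by the 40729076 reads of the Pontin library and the 17185883 of the GFP library. Ddx4 had 92 Pontin and 33 GFP reads, a log2 ratio of 0.23, the highest of the 10. Stk31 had 91 and 33 reads (0.22), Mael 49 and 18 (0.20), Slc25a31 65 and 24 (0.19) and Hormad1 86 and 33 (0.14). Sycp3 had 78 and 34 (-0.047), Sycp1 69 and 31 (-0.091), Dazl 65 and 34 (-0.31) and Tex101 39 and 22 (-0.42). Stra8, with 51 Pontin and 35 GFP reads, was the lowest at -0.70, and 6.09% of all promoters were lower. The median over all promoters was 74 Pontin and 25 GFP reads. Of the 569 promoters with at least 50 GFP reads, 0 were above 1, and their median log2 ratio was -0.58. The ratio thus varied with the GFP count, whose part in the values of the 10 was not tested.

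The median of the 10 was 0.045 where that of all promoters was 0.34. For genes above 1 CPM in the control shRNA libraries it was 0.45, and for genes at or under 1 CPM 0.13. The piRNA list had a median of 0.12, the primordial germ cell regulators 0.16 and the meiotic list 0.32. The other germline genes had 0.51 and the late spermatid and oocyte genes 0.59. On all reads the 10 genes were below the median of all promoters. With mates of a read pair counted 1 time that median was 0.31, which Mael (0.39) exceeded and Ddx4 (0.31) hardly differed from, and exact 95% intervals of the ratio were wide, from -0.48 to 1.17 for Ddx4 and from -1.64 to 0.19 for Stra8. Stra8 was the only gene whose interval lay below the median of all promoters, and the intervals of Ddx4, Mael, Slc25a31 and Stk31 reached above 1. In a window of 1 kb either side of the start, Ddx4 had a log2 ratio of 0.99 and Slc25a31 of 0.80, where the median of all promoters was 0.51, and again 0 of the 10 were above 1, against 25.4% of all promoters. Reads of the 10 promoters were also pooled in bins of 500 bases. From 2.5 kb upstream to the start, the log2 ratios were 0.71, -0.96, -0.39, -0.17 and -0.11. Those of all promoters were 0.018, 0.018, 0.089, 0.25 and 0.59. In the 500 bases after the start the pooled ratio was 0.65 (95% counting interval 0.16 to 1.17), against 0.49. Both mates of a pair were counted in these bins, so that interval is too narrow. In the bin after the start the 10 were not lower. For Ddx4, Mael, Slc25a31 and Stk31 a log2 ratio above 1 could not be told from a lower one at this depth, with 1 library of each kind. The 7 genes whose RefSeq window held an E-box had ratios from -0.091 to 0.23, and the 3 without had ratios from -0.70 to -0.31, with intervals that overlap between the groups. In the window of 1 kb either side of the start the groups were not divided: Sycp3, with 2 E-boxes, had -0.063 and Stk31 -0.015, whereas Tex101 had -0.035 and Dazl 0.0089. The bases printed for Stra8 lie outside the window that ends 500 bases downstream of the start, given the distance between its starts. In the plot of promoters the genes are ordered by this ratio beside the places of both words.

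**Figure D5:**
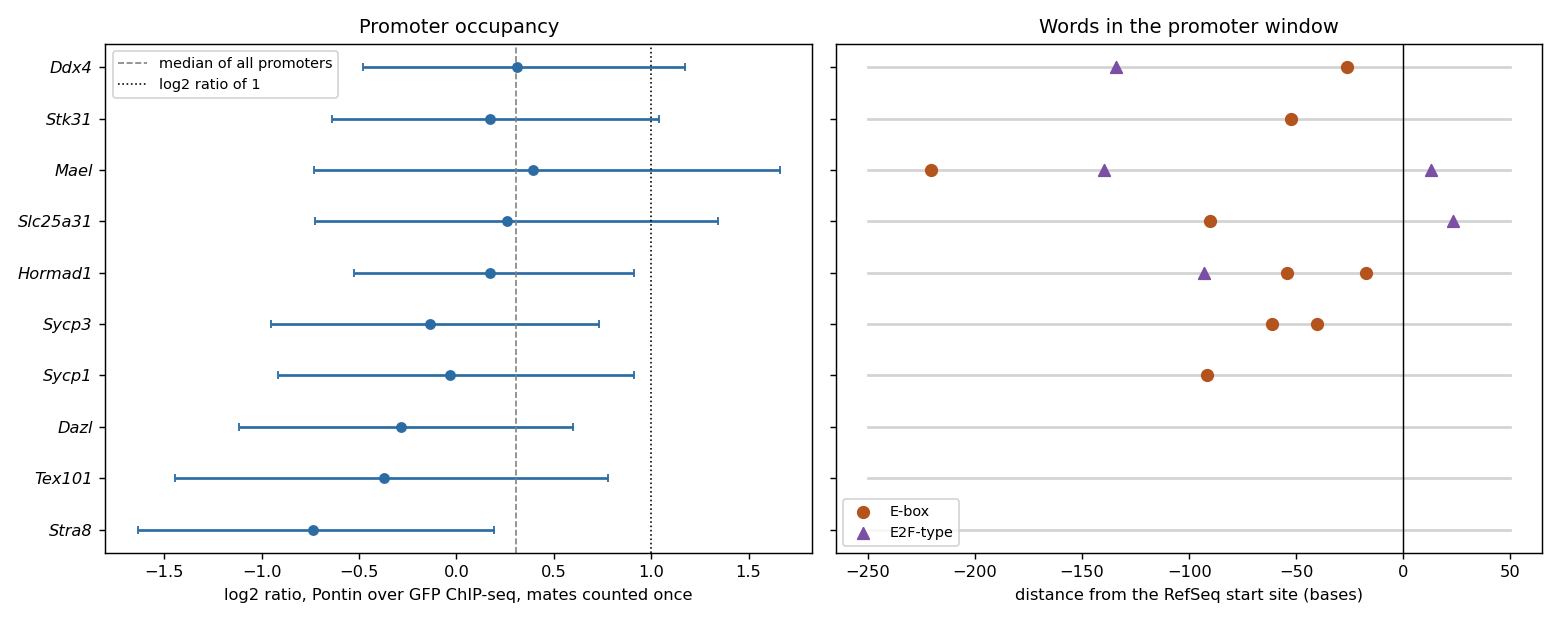
Left, log2 ratio of Pontin over GFP ChIP-seq reads at each germline promoter with mates counted 1 time and 95% exact intervals; the dashed line is the median of all promoters on the same measure and the dotted line a log2 ratio of 1. Right, places of the E-box (circles) and the E2F-type word (triangles) in the RefSeq window, in bases from the start of transcription; the 3 genes with neither word, Dazl, Tex101 and Stra8, are the lowest 3 on the left in this window but not in that of 1 kb either side of the start.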

How the data were processed

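The mRNA of 8 mouse ES cell libraries and 1 Pontin and 1 GFP ChIP-seq library were analysed. The members and all gene lists were chosen with earlier results of these data known. Per the labels and the study's methods, reads were trimmed, aligned to NCBIM37 with TopHat and counted on genes with HTSeq, and the authors deposited normalized read counts (CPM) scaled by TMM in edgeR, separately for the table of WT, OHT 3D, OHT 4D and Tc 2D and for the table of the shRNA libraries. The tables came from different HiSeq models. Every CPM value was a whole multiple of the worth of 1 read (100% of values within 0.01 read), and the recovered reads gave exact 95% intervals, which hold for counting error alone, because PCR copies of a molecule were not told apart. The limit a count of 0 allows was 3 reads.

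In the first table, with 1 library a group, the log2-fold-change of CPM plus a pseudocount of 1 was called above 0.58 in size, among genes above 1 CPM in at least 1 of its 4 libraries, without a test. The shRNA libraries were compared by limma 3.58.1 with trend on the same scale and the same filter, with Benjamini-Hochberg adjustment over all genes at 0.05. edgeR 4.0.16 and DESeq2 1.42.0 (R 4.3.3) on the recovered reads were alternatives. Comparisons across tables used median-ratio factors over all 8 libraries. Scripts were tested on simulated data.

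The ChIP-seq files were aligned with Bowtie2 and deposited as 1 line a read, whose score is the mapping quality the authors kept above 5. Reads were counted per promoter with bedtools 2.31.1, from 2.5 kb upstream to 500 bases downstream of the start, and scaled by library size. Duplicates, not stated to be removed, made up 10.9% of Pontin and 19.7% of GFP reads in promoters.

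All 10 members are named. Of each other list, up to 4 genes a comparison could be named, those called with the largest change and then those with the highest level. Exceptions chosen after their values were seen are Chpt1, Prm1, Zp2, Zp3, Dppa3 at OHT 4D and the genes named for how they passed the filter. So are the markers Acta2, Tnc, Col1a1, Lum, Dcn, Fn1, Postn, Col5a1, Thy1, Pdgfrb, Loxl1, Zscan4c, Zscan4d, Zscan4f, Usp17le, Ddx3y, Eif2s3y, Uty and Kdm5d. Alternatives were other pseudocounts, filters, scalings and limits, leaving out each shRNA library, a replicate block, and for promoters other windows, scalings and duplicate rules. The comparison of control shRNA with WT, counting mates 1 time, and the other scalings and left-out libraries of the comparisons across tables were added after seeing the data. Fold changes on the CPM plus 1 scale understate the change of low genes.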

Additional observations from a re-analysis of the deposited data

Results flagged for a closer look

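Sycp1, of the synaptonemal complex, and Stra8, of meiotic entry, had log2-fold-changes against WT of opposite sign at the OHT times. Sycp1 had 0.28 at OHT 3D and -0.10 at OHT 4D, a difference of -0.38, and the log2 ratio of OHT 4D over OHT 3D was -0.43 (95% counting interval -0.75 to -0.11). Stra8 had -0.24 and 0.12, a difference of 0.36, and a log2 ratio of 0.38 (0.23 to 0.52). Neither was called at either time. Each time is 1 library and both share the WT library, so the difference was not tested against replicates.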

How the results depend on the processing

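With the limit raised to an absolute log2-fold-change of 1, 0 germline genes were called in either OHT comparison and 4 in that of Tc 2D with WT (2 higher, 2 lower). Against the ZHBTc4 control shRNA libraries in place of WT, Tc 2D turned to -0.52 for Mael and to -0.87 for Slc25a31. After linc1253 knockdown, 1 germline gene, Mael, was called by the edgeR exact test (adjusted p = 0.0410), and 1 with an unadjusted p under 0.05 together with the smaller fold limit of the study's methods. A fit with the replicate block called 1, Mael (limma adjusted p = 7.15e-05), and 933 genes higher and 1027 lower over all genes. In it 4 germline genes had an unadjusted p under 0.05, all lower, the others being Dazl (limma adjusted p = 0.0635), Stra8 (0.0661) and Stk31 (0.149). Same-numbered shRNA libraries deviated together (r = 0.67 across 13407 genes), but the numbers are not stated to pair the libraries, and this r was read from the same data. The causes of these changes were not tested. With any 1 shRNA library left out, 0 germline genes were called, the smallest adjusted p among them lay between 0.371 and 0.878, and the remaining single library was taken to vary like the other group. The log2-fold-changes that changed sign then lay from -0.27 to 0.25 for Slc25a31, -0.27 to 0.081 for Ddx4, -0.28 to 0.0027 for Sycp1 and -0.15 to 0.19 for Tex101. Without sign changes, Dazl lay from -0.37 to -0.024, Stk31 from -0.28 to -0.069 and Stra8 from -0.43 to -0.11. The comparisons of Tc 2D and of WT with the control shRNA libraries kept 5 and 8 calls with either control left out. Of the other values of single genes, 451 stayed within the limits set for a move and 104 moved, 76 of these being levels under another scaling. Median-ratio scaling of the ChIP-seq promoters moved the median of the 10 from 0.045 to -0.30. No promoter of the 10 had 50 GFP reads, so that alternative gave no value for them. The 569 promoters that had as many gave a median of -0.58, with 0 above 1. Depth limits Tex101 and, in the first table, Slc25a31, at 3 and 10 reads in WT.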
